A study of Danio rerio with 6 samples.

Results

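The genes described here are some of the cytokine, innate signalling and caspase genes of the array. They take in chemokine receptors, interleukins, interferons, tumour necrosis factor (TNF) family members, and Toll-like receptors and adaptors. Also included are interferon regulatory factors (IRF), NF-kB and JAK/STAT signalling genes, caspases and an inhibitor of apoptosis. They were chosen by name alone, as array targets with a RefSeq mRNA identifier whose zebrafish symbol starts with a prefix of these families, and 43 of the 37157 targets on the array were found (43 of 2663 targets with such a symbol). The search also covered chemokine ligands, suppressors of cytokine signalling, myd88, bcl2 and bax, for which no target was found by this rule, and targets with other kinds of identifier were not used. Under such identifiers the study listed CXCL12 and IL6R as down-regulated and BIRC5 as up-regulated on these same pools. The rule takes in 2 genes that share only the prefix of the NF-kB subunits, relch, which acts in cholesterol transport with a Rab protein, and relt, a TNF receptor family member, and it takes in il1rapl1a, a neuronal adhesion protein related to the interleukin 1 receptor.

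RNA was measured in whole larvae of the wild-type AB strain at 120 h post fertilization (hpf), in 3 pools of 50 larvae irradiated with a full dose of 5 Gy from a Co-60 source at 26 hpf and 3 pools of 50 mock irradiated controls (0 Gy). Each pool was hybridized to 1 one-colour NimbleGen array, and the replicates, numbered 1 to 3 in each group, came from separate clutches. A target was measured by up to 12 probes, whose log2 intensities were combined into 1 value per pool, so that a difference of 1 on the log2 scale is a 2-fold difference. In pools of whole larvae, fewer cells of a type and less RNA per cell cannot be told apart.

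Cytokines and chemokines are secreted signals that guide and activate leukocytes. Toll-like receptors sense microbial molecules and pass the signal through TRAF adaptors to the NF-kB factors, which are held in the cytoplasm by IkB proteins, and cytokine receptors signal through JAK kinases and STAT factors. Caspases are proteases that carry out apoptosis, a death programme that ionizing radiation is known to start through p53 within hours in zebrafish embryos, and members of the BIRC family can restrain it. The larvae were collected days after the dose, and at this stage innate immune cells are present while adaptive immunity is not yet mature.

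The levels of nearly all of these genes overlapped between irradiated and control pools. A target was called altered at an unadjusted p under 0.05 and a change of at least 1.5-fold (0.585 on the log2 scale), the thresholds of the methods, with limma, and "rose" or "fell" is used only of these. Only il19l rose (1 of 43), no gene fell, and 42 missed the thresholds, a share altered of 2.33% against 4.04% of all 37157 targets (1.15% higher and 2.89% lower). At an unadjusted p under 0.05 alone the count was also 1. No gene of the group and no target of the array reached an adjusted p of 0.05 (smallest 0.905 in the group and 0.0909 on the array, limma with Benjamini-Hochberg adjustment over all targets). The median log2 ratio of 5 Gy to control was 0.08 in the group and -0.03 over all targets, with 28 ratios above 0 and 15 below 0 in the group. The single ratios of the group lay between -0.73 and 0.99. Among the 2663 targets with a RefSeq mRNA identifier and a symbol, from which the group was taken, the median was 0.04. Of these targets 1440 had a ratio above 0 and 1223 below 0, and 40 rose and 48 fell. The 3 values at 5 Gy lay all above or all below the 3 control values in 2 of the 43 genes (4.65%), il19l and il1rapl1a, against 7.49% of all targets.

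**Figure D1:**
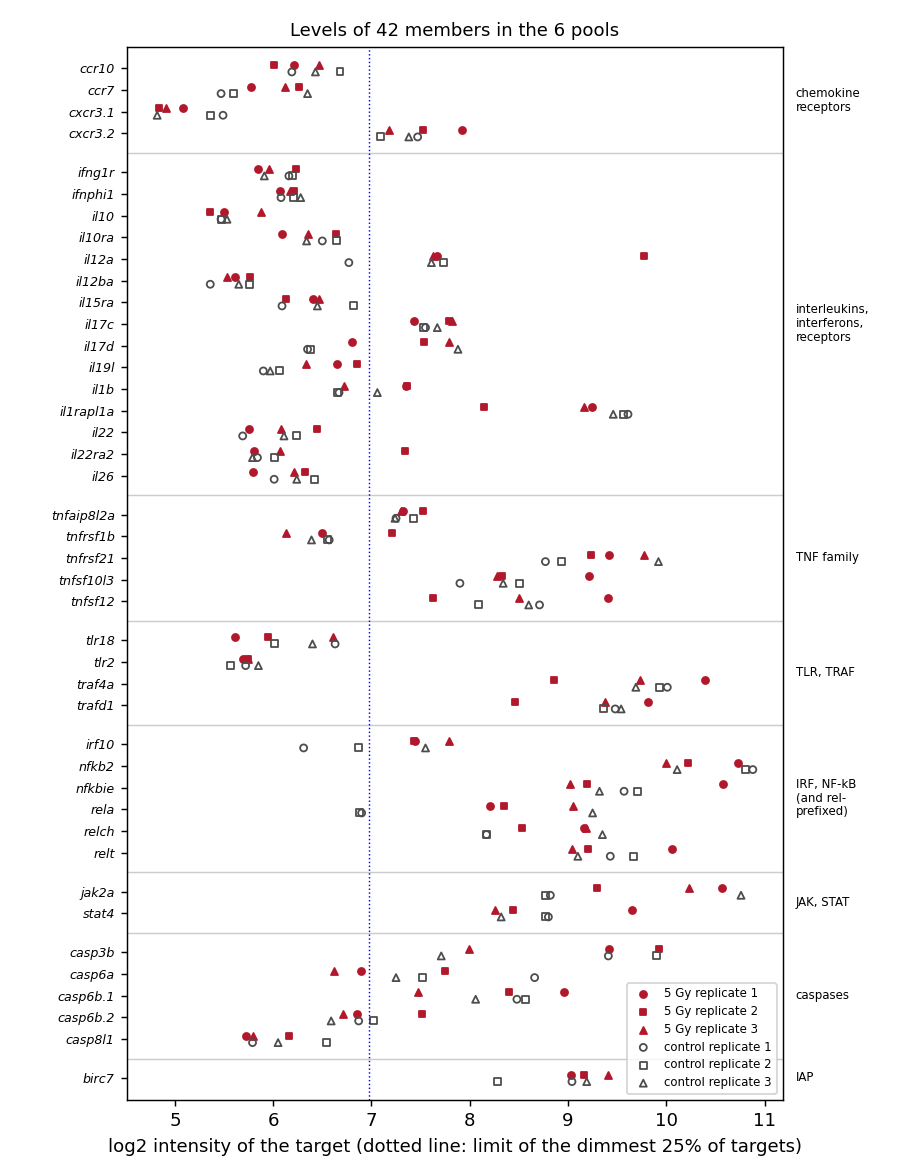
Log2 intensity of 42 of the 43 genes (rows, by role) in the 3 pools at 5 Gy (filled red, upper line of each row) and the 3 control pools (open grey, lower line), with circles, squares and triangles for replicates 1, 2 and 3. The dotted line at 6.97 is the limit of the dimmest 25% of targets; the groups lie apart in 2 rows, il19l and il1rapl1a.

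How well small changes could be seen differed among the genes. The standard error of the log2 ratio lay between 0.254 and 0.663. The 95% interval of the ratio lay wholly between -1 and 1 for 18 of the 43 genes, so a 2-fold change lay outside it for these, while it reached 1 or more for 18 genes and -1 or less for 9. It held 0 for 42 genes. For 18 genes the mean over the 6 pools was below 6.97, the lower quartile of all targets (called dim here), and 15 of them stayed under it in every pool. Such values are not shown to lie above background, and how bright a target is depends on its probes as well as on its RNA. Of the 18 genes with an interval wholly between -1 and 1, all but relt, tnfaip8l2a, cxcr3.2 and il17c were dim. For the dim ones a narrow interval does not show that the RNA was unchanged. Most of the dim genes were cytokines and their receptors: 10 of 15 interleukins, interferons and receptors and 3 of 4 chemokine receptors. Against these, 2 of 5 caspases were dim, and none of 7 genes in the class of IRF and NF-kB genes with relch and relt.

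**Figure D2:**
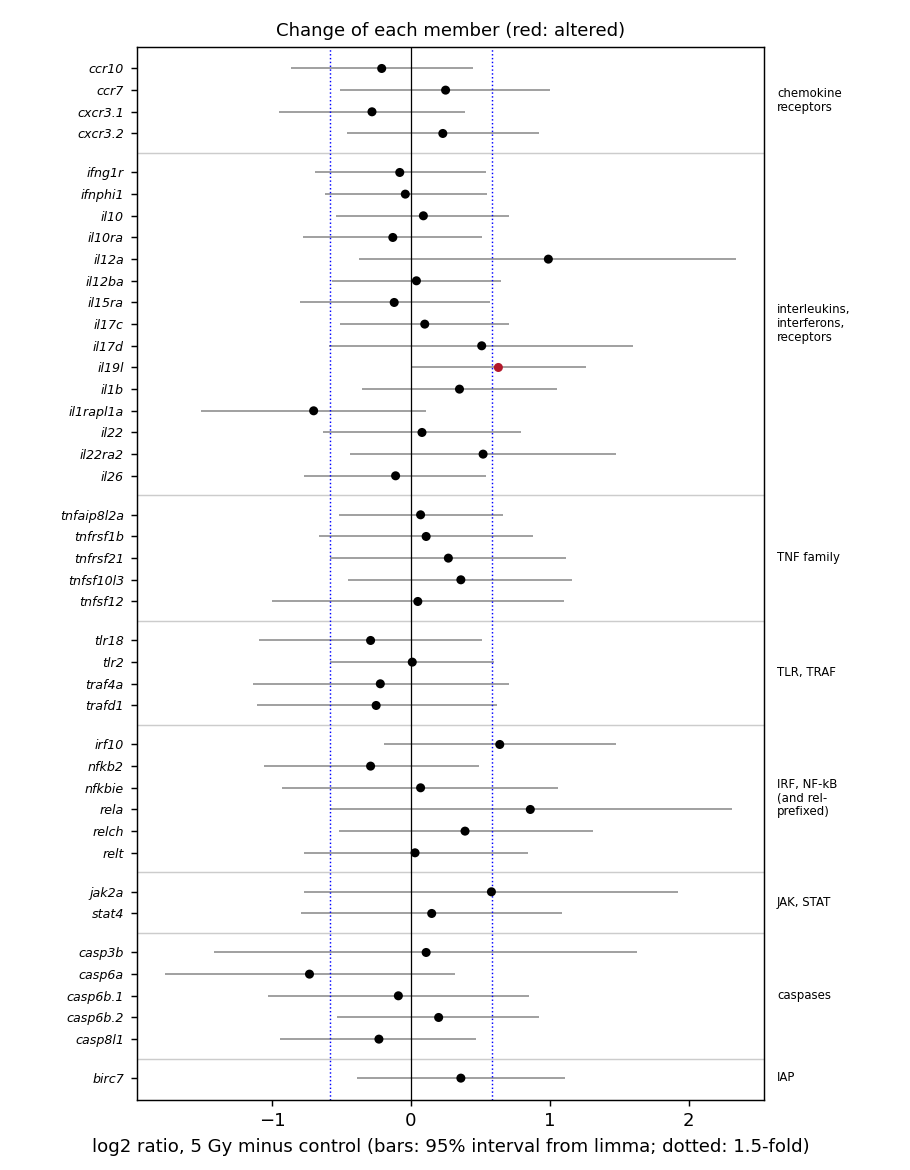
Log2 ratio of 5 Gy to control for 42 of the 43 genes (rows, by role), with bars for the 95% interval from limma and dotted lines at a change of 1.5-fold. The one red point is il19l, at 0.63, and its interval of 0.01 to 1.26 is the only one that does not hold 0.

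The arrays differed in a way that touches these results. Across targets, r was 0.987 between 5 Gy replicate 3 and control replicate 3, and 0.957 and 0.915 between 5 Gy replicates 1 and 2 and control replicate 3, but 0.897 and 0.905 between control replicate 3 and the other two controls. Those other controls correlated at 0.977 with each other. Among the 5 Gy arrays r was 0.953 between replicates 1 and 3, but 0.912 and 0.92 between replicate 2 and replicates 1 and 3. For each of the 43 genes the pool farthest from the median of the other 5 was found. It was 5 Gy replicate 1, 2 or 3 for 10, 11 and 4 genes, and control replicate 1, 2 or 3 for 8, 7 and 3. Of 5 measured defining genes of larval tissues 3 were among the bright targets in both groups, with mean values of 15.32 at 5 Gy and 15.17 in controls for acta1b of skeletal muscle, 15.19 and 15.42 for crybb1 of the lens, and 14.65 and 14.50 for hbae3 of red blood cells. The heart gene myl7 was lower, at 7.69 at 5 Gy and 7.42 in controls, as was the endothelial gene cdh5, at 8.21 at 5 Gy and 8.76 in controls.

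The chemokine receptors steer leukocytes along gradients of their ligands, and none of the 4 passed the test (median log2 ratio 0.01, range -0.28 to 0.25). Values for cxcr3.2, which guides macrophages in zebrafish larvae, were 7.92, 7.52 and 7.18 in 5 Gy replicates 1, 2 and 3, against 7.47, 7.09 and 7.38 in control replicates 1, 2 and 3. The groups overlapped, and the log2 ratio was 0.23 (standard error 0.301). Its near neighbour in the RefSeq gene order, cxcr3.1, had 5.08, 4.84 and 4.91 at 5 Gy, against 5.49, 5.36 and 4.82 in controls. Here control replicate 3 was the lowest of all 6 pools, the ratio was -0.28 (standard error 0.292), and every value was dim. The ratio was 0.25 for ccr7, which directs T cells and dendritic cells to lymph nodes in mammals, and -0.21 for ccr10, a receptor of skin-homing T cells in mammals, both dim.

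The interleukins, interferons and their receptors held the only gene that rose. Of 15 genes 1 rose and 14 did not pass the test, and the median ratio was 0.08. The gene that rose, il19l (RefSeq mRNA NM_001082955), belongs to the interleukin 10 family and lies next to il10 in the RefSeq gene order. It had 6.65, 6.85 and 6.33 in 5 Gy replicates 1, 2 and 3, against 5.90, 6.06 and 5.97 in control replicates 1, 2 and 3. All 3 irradiated pools were above all 3 controls, and it was higher at 5 Gy in each of the 3 replicate numbers (by 0.75, 0.79 and 0.36). The means were 6.61 ± 0.262 at 5 Gy and 5.97 ± 0.0786 in controls (SD, n = 3 pools each), the log2 ratio was 0.63 (standard error 0.272) and the adjusted p was 0.905 in limma. Of its 12 probes, which read the same pools and are not replicates, 11 had a ratio above 0. The unadjusted p of 0.0476 in limma was just inside the threshold, and the exact permutation p was 0.1 (two-sided), the lowest value that groups of 3 and 3 can give. All 6 values were dim. Its identifier is among those the study listed as altered on these same pools, so its direction is not independent evidence. The call did not hold when the replicate number entered limma as a block (unadjusted p = 0.0605, adjusted p = 0.572 in limma). It was lost in 9 of 16 other settings in all, among them without control replicate 1, 2 or 3 and without 5 Gy replicate 1 or 2, with log2 ratios of 0.52 to 0.68 in those 5.

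The neighbour il10, an anti-inflammatory cytokine, showed no such separation. It had 5.50, 5.36 and 5.88 at 5 Gy, against 5.47, 5.47 and 5.53 in controls. The ratio was 0.09 (standard error 0.272), with a 95% interval of -0.54 to 0.71, and every value was dim. The receptor subunit il10ra had a ratio of -0.13, and the other family members il22 and il26, which lie beside each other with the interferon gamma ligand gene ifng1r next to il26, had 0.08 and -0.11. In mammals interleukin 22 acts on epithelia, and il22ra2 is its soluble decoy receptor. This receptor gene was high in 1 pool, with 5.80, 7.34 and 6.07 at 5 Gy, against 5.84, 6.01 and 5.79 in controls, with a ratio of 0.52 (standard error 0.418).

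The same irradiated pool, replicate 2, was the highest for il12a, a subunit of interleukin 12, which promotes interferon gamma production in mammals. The values were 7.67, 9.77 and 7.63 in 5 Gy replicates 1, 2 and 3, against 6.77, 7.73 and 7.61 in control replicates 1, 2 and 3. The groups overlapped, since 5 Gy replicates 1 and 3 lay within the range of the controls, and the log2 ratio of 0.99 (standard error 0.591, adjusted p = 0.905 in limma) was the highest of the 43. With the replicate number as a block, which sets each irradiated pool against the control of its number (differences of 0.90, 2.03 and 0.03), il12a passed the thresholds (standard error 0.399, adjusted p = 0.567 in limma). In the fit with the block il12a was the only one of the 43 to pass (2.33%), against 8.81% of all targets. Without 5 Gy replicate 2, and without the block, its ratio was 0.28 (standard error 0.370), below the thresholds. The partner subunit il12ba had a ratio of 0.04 (standard error 0.267), with all values dim.

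The lowest ratio of this class belonged to il1rapl1a, which in mammals organizes synapses and is not an inflammatory receptor. It had 9.24, 8.14 and 9.16 in 5 Gy replicates 1, 2 and 3, against 9.61, 9.56 and 9.46 in control replicates 1, 2 and 3. All 3 irradiated pools were below all 3 controls, and the lowest was again 5 Gy replicate 2. The means were 8.85 ± 0.616 at 5 Gy and 9.55 ± 0.0756 in controls (SD, n = 3 pools each). The ratio of -0.70 (standard error 0.353, 95% interval -1.51 to 0.11) did not pass the test. Without 5 Gy replicate 2 it was -0.34 (standard error 0.268). All 12 probes of the gene had a ratio below 0, but they read the same pools and are not replicates.

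The inflammatory cytokine il1b, an early product of activated macrophages and neutrophils, had 7.35, 7.36 and 6.72 at 5 Gy, against 6.67, 6.65 and 7.06 in controls. Irradiated replicates 1 and 2 lay above every control and replicate 3 did not, and the ratio was 0.35 (standard error 0.304, 95% interval -0.35 to 1.05). The interleukin 17 family members il17c and il17d had ratios of 0.10 and 0.51. The interferons did not pass the test either: the type I interferon ifnphi1, an antiviral signal, had 6.07, 6.21 and 6.17 at 5 Gy, against 6.08, 6.21 and 6.28 in controls (ratio -0.04, standard error 0.254, 7 probes), and the ifng1r ligand had a ratio of -0.08. For il15ra, the receptor subunit that presents interleukin 15 to T and natural killer cells in mammals, it was -0.12. The interval of ifnphi1 ran from -0.62 to 0.55 and that of ifng1r from -0.69 to 0.54, at dim values throughout.

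**Figure D3:**
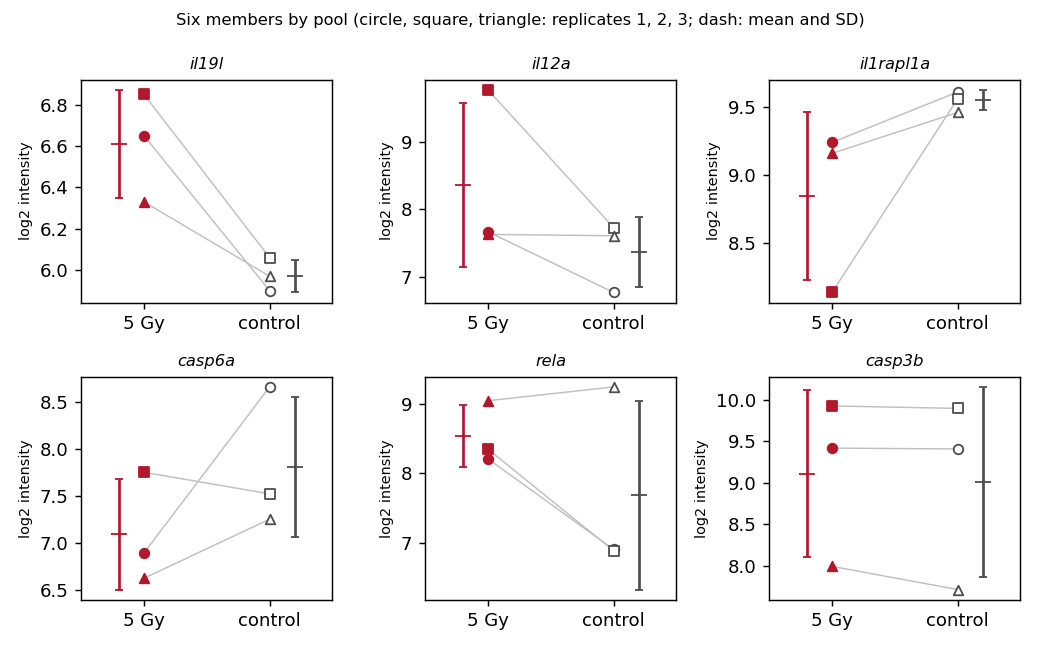
Log2 intensity of 6 genes in each pool, with 5 Gy at the left and control at the right of each panel, grey lines joining pools of the same replicate number, and a dash with a bar for the mean and SD of 3 pools. The groups lie apart for il19l and il1rapl1a; il12a is high in 5 Gy replicate 2, rela is low in control replicates 1 and 2, and casp3b is low in replicate 3 of both groups.

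None of the 5 genes of the TNF superfamily and TNF-induced proteins passed the test, and their ratios lay between 0.05 and 0.36 with a median of 0.11. The death receptor gene tnfrsf21 had 9.42, 9.23 and 9.77 at 5 Gy, against 8.77, 8.93 and 9.92 in controls. The 3 irradiated pools lay between control replicates 1 and 2 below and control replicate 3 above, with a ratio of 0.27 (standard error 0.371). The gene tnfsf10l3, related to the death ligand TRAIL, had 9.21, 8.33 and 8.28 at 5 Gy, against 7.90, 8.51 and 8.34 in controls. Only 5 Gy replicate 1 lay above every control there, and the ratio was 0.36 (standard error 0.350). The ratios were 0.05 for tnfsf12, the ligand TWEAK, 0.11 for the TNF receptor gene tnfrsf1b, and 0.07 for tnfaip8l2a, whose mammalian counterpart damps immune responses. The last of these had the narrowest interval of the class, -0.52 to 0.66.

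The Toll-like receptors and their adaptors also gave no call among 4 genes (median -0.23, range -0.29 to 0.01). Values for tlr2, a receptor of bacterial lipoproteins, were 5.69, 5.74 and 5.74 at 5 Gy, against 5.72, 5.57 and 5.85 in controls. These 6 values were nearly level, dim throughout, and the ratio was 0.01 (standard error 0.256, 95% interval -0.58 to 0.60). The fish receptor tlr18 had 5.61, 5.95 and 6.61 at 5 Gy, against 6.63, 6.01 and 6.40 in controls, and the groups overlapped (ratio -0.29, standard error 0.347). The adaptor gene traf4a, brighter than the dim limit in every pool, had 10.39, 8.86 and 9.73 at 5 Gy, against 10.01, 9.93 and 9.69 in controls. The irradiated pools spread on both sides of the controls, with 5 Gy replicate 2 the lowest (ratio -0.22, standard error 0.403). For trafd1, a negative regulator of innate signalling in mammals, the ratio was -0.25.

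Among the IRF and NF-kB family genes with their prefix-sharing genes, none of 7 passed the test, and the median ratio was 0.39, with 6 ratios above 0. The NF-kB subunit gene rela had 8.21, 8.35 and 9.05 in 5 Gy replicates 1, 2 and 3, against 6.90, 6.88 and 9.25 in control replicates 1, 2 and 3. Control replicates 1 and 2 lay below all irradiated pools, and control replicate 3 above all of them. The ratio of 0.86 (standard error 0.630, 95% interval -0.58 to 2.31) was above 0 for all 12 probes. The difference was 1.31 and 1.47 within replicate numbers 1 and 2, and -0.19 within number 3. For irf10, a regulator of interferon responses in fish, the values were 7.44, 7.43 and 7.79 at 5 Gy, against 6.31, 6.87 and 7.55 in controls (ratio 0.64, standard error 0.363). Here each irradiated pool was above the control of its own number, while control replicate 3 again lay above 2 irradiated pools.

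The NF-kB subunit gene nfkb2 had 10.73, 10.22 and 10.00 at 5 Gy, against 10.88, 10.81 and 10.11 in controls, so each irradiated pool was below the control of its number, by differences of -0.15, -0.60 and -0.12 in numbers 1, 2 and 3 (ratio -0.29, standard error 0.338). The IkB gene nfkbie, whose product holds NF-kB in the cytoplasm, had a ratio of 0.07 (standard error 0.433). For relt the ratio was 0.03. For relch control replicate 3 was again the highest pool and the other controls were the lowest, with 9.16, 8.53 and 9.18 at 5 Gy, against 8.17, 8.17 and 9.35 in controls (ratio 0.39, standard error 0.399).

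Neither of the JAK and STAT genes passed. The kinase gene jak2a, which signals below many cytokine and hormone receptors, had 10.57, 9.29 and 10.23 at 5 Gy, against 8.82, 8.77 and 10.76 in controls. Control replicate 3 was the highest of the 6 pools, and the other 2 controls were the lowest. The ratio was 0.58 (standard error 0.586), with differences of 1.75, 0.52 and -0.53 in replicate numbers 1, 2 and 3. The transcription factor gene stat4, which acts below interleukin 12 in mammals, had a ratio of 0.15 (standard error 0.409).

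Leaving out control replicate 3 therefore changed the count of this group more than leaving out any other pool. Without it il19l lost its call, as it did without control replicate 1 or 2, with its ratio still at 0.63. In the fit without control replicate 3, 6 of the 43 genes rose and none fell. Among them were rela (1.65, standard error 0.349), jak2a (1.24), il17d (1.01), irf10 (0.96) and relch (0.79). These 6 are 14.0% of the group, against 19.2% of all targets called in the same fit, and rela had the smallest adjusted p of the group at 0.0626. In control replicate 3, all 6 were higher than the mean of control replicates 1 and 2, by 0.96 (irf10) to 2.36 (rela). These 6 passed without that pool and not in the fit with all pools, so this order is in part built in by how they were picked. Across the group 8 of 43 genes (18.6%) were at least 1.5-fold higher in control replicate 3 than in that mean and 4 (9.3%) at least 1.5-fold lower, against 18.4% and 23.9% of all targets. For 28 of 43 genes (65.1%) control replicate 3 was closer to 5 Gy replicate 3 than to that mean, against 75.9% of all targets. Whether that pool or the other 2 controls stand apart from typical larvae was not tested.

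**Figure D4:**
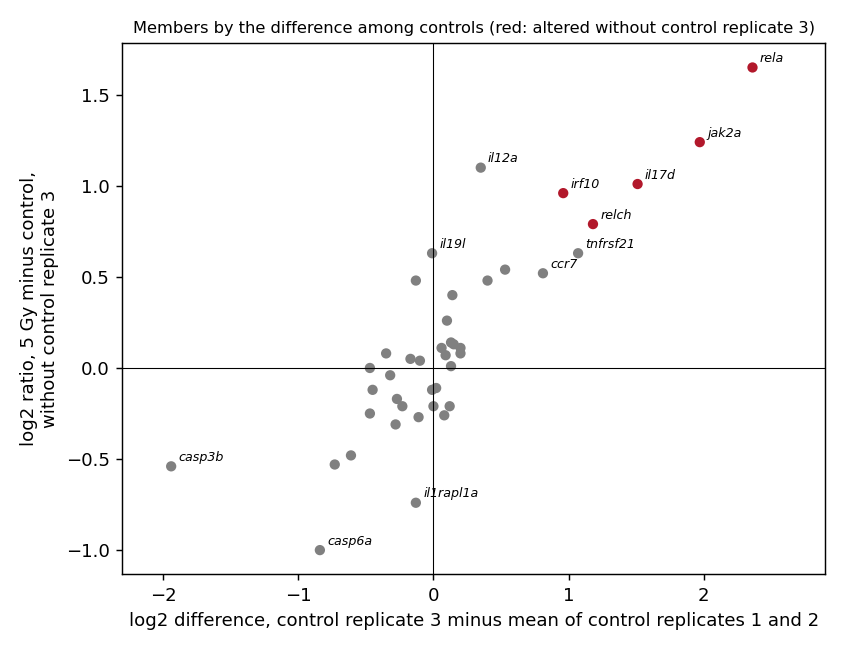
For 42 of the 43 genes, the log2 difference between control replicate 3 and the mean of control replicates 1 and 2 (horizontal) and the log2 ratio of 5 Gy to control without control replicate 3 (vertical); both axes use control replicates 1 and 2, so a relation between them is built in. The 5 red points, called without that pool, all lie at 0.96 or more on the horizontal axis.

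The 5 caspase genes gave no call, with ratios between -0.73 and 0.20 and a median of -0.09. The executioner caspase gene casp3b had 9.42, 9.93 and 7.99 in 5 Gy replicates 1, 2 and 3, against 9.41, 9.90 and 7.71 in control replicates 1, 2 and 3. Pools of the same number were nearly level, with differences of 0.02, 0.03 and 0.27, while replicate 3 differed from the mean of replicates 1 and 2 by -1.69 at 5 Gy and by -1.94 in controls. The ratio was 0.11, and its standard error of 0.663 was the largest of the 43. Over all targets, 59 of 37157 (0.159%) were lower by at least 1.5 on the log2 scale in replicate 3 of both groups, and casp3b was the only one of the 43. It was singled out after its values were seen.

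The caspase 6 genes casp6a, casp6b.1 and casp6b.2 lie close together in the RefSeq gene order and act among the executioner caspases in mammals, and cross-hybridization between their probes was not tested. Values for casp6a were 6.89, 7.75 and 6.62 at 5 Gy, against 8.66, 7.52 and 7.25 in controls. The highest pool was a control and the lowest 2 were irradiated, but 5 Gy replicate 2 lay above 2 controls. The ratio of -0.73 (standard error 0.457, 95% interval -1.77 to 0.32) was the lowest of the 43 and lay below 0 for all 12 probes. When the probes were combined by their median, casp6a fell by 1.16 (standard error 0.394). It was the only one of the 43 called in that fit (2.33%), against 3.93% of all targets. The smallest adjusted p of the group there was 0.925 (limma). Without control replicate 1, with the probes combined as elsewhere, the casp6a ratio was -0.30 (standard error 0.433). The other 2 had ratios of -0.09 and 0.20, and the caspase 8 relative casp8l1, of the initiator group that acts below death receptors, had -0.23 at dim values.

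The only inhibitor of apoptosis found by the name rule, birc7, had 9.03, 9.16 and 9.41 at 5 Gy, against 9.04, 8.28 and 9.19 in controls. Control replicate 2 was the lowest pool, and the other 5 lay close together (ratio 0.36, standard error 0.327, 95% interval -0.39 to 1.11).

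Genes of the same pathways outside the name rule were taken from lists. Of 47 listed genes of the p53 pathway and upstream apoptosis 7 were measured under the same kind of identifier, and none passed the test (median 0.12). The smallest p belonged to bmf1, which promotes cell death, at 0.78 (standard error 0.485). The study listed MDM2, CCNG1 and RPS27L as up-regulated on these same pools, under other kinds of identifier, which were not used here. None of 5 measured of 46 listed genes of Toll-like receptor and NF-kB signalling passed (median -0.04), and the IkB kinase subunit ikbkg had the smallest p, at -0.53 (standard error 0.363). The receptor-associated kinase irak4 was at 0.51 (standard error 0.351), with its 3 irradiated pools above all controls. The groups lay apart, in either direction, in 7.49% of all targets. Of 44 listed antiviral, interferon-induced and cytokine receptor genes 6 were measured and none passed (median 0.04), with the ubiquitin ligase trim25 at -0.56 (standard error 0.343). Without control replicate 3 bmf1 rose by 1.27, and ikbkg and trim25 both fell by 0.88. That fit called 19.2% of all targets, and each of these genes was picked for the smallest p of its list. Of 33 listed acute phase and inflammatory genes 2 were measured, of which the heme oxygenase gene hmox1b rose (1.53, standard error 0.461), and the iron hormone gene hamp had 0.43. The call for hmox1b was lost by the methods' t-test and by its paired version, and its identifier too is among those the study listed as altered on these pools. Of 36 listed defining genes of larval tissues 5 were measured and none passed, with the smallest p for the endothelial cadherin cdh5 (-0.55, standard error 0.398).

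Of 39 listed leukocyte markers 5 genes with 6 targets were measured, and none passed the test. Their ratios lay on both sides of 0 (median 0.00, range -1.17 to 0.28). Their mean log2 value per pool lay between 7.86 and 8.07 at 5 Gy and between 7.95 and 8.39 in controls. In these means control replicates 1 and 2, at 8.12 and 8.39, lay above all irradiated pools. The groups overlapped there only through control replicate 3 (7.95). That order of the means rests on gata3, the brightest of the 6 targets, which has 3 probes and the ratio farthest from 0. By the median of the 6 targets, 5 Gy replicate 2 (7.34) lay above control replicates 1 (7.19) and 3 (6.82). The myeloid factor spi1b had 7.07, 7.49 and 7.01 at 5 Gy, against 8.12, 8.17 and 6.76 in controls, with a ratio of -0.49 (standard error 0.421). The T cell kinase lck was dim on both of its targets (ratios 0.02 and -0.01), and cebp1 of granulocytes had 0.13 and mfap4.1 of macrophages 0.28. The lowest ratio was that of gata3, which is also a neuronal factor, at -1.17 (standard error 0.542), farther from 0 than the ratio of any of the 43 genes. Its values were 11.61, 10.08 and 12.17 at 5 Gy, against 12.24, 13.03 and 12.08 in controls. Without 5 Gy replicate 2, its lowest pool, the ratio was -0.56 (standard error 0.39). It passed the thresholds without 5 Gy replicate 3 (-1.61, standard error 0.54) and in eBayes with a trend. Those fits called 4.13% and 4.16% of all targets, and gata3 was picked for the smallest p of its list. The part of leukocyte number in the cytokine values was not tested.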

How the data were processed

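The authors used NimbleScan and quantile normalization on the one-colour scans. They deposited linear intensities, 1 per array for 385000 probes, which have not been combined into targets although the submitters' processing notes name RMA. Whether background was subtracted is not stated. All 6 columns were used. Median polish of log2 values (tolerance 0.01, up to 10 iterations) gave 37157 targets, to which lmFit and eBayes were applied without a covariate (limma 3.58.1, R 4.3.3). P-values were adjusted by Benjamini-Hochberg across the array. The number of arrays limits the precision.

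A current symbol was found for 2663 of the 3055 RefSeq mRNA targets in the RefSeq gene table (assembly GRCz12tu), which was also used for gene order; 41 of the 43 members carry the same symbol in the platform annotation, and the other 2 are not listed there. Values per pool are given by rule for members altered with or without the block, members whose groups did not overlap, and the largest change and highest level of each role class; other members singled out were picked after their values were seen. From each of the 6 comparison lists the altered target or that with the smallest p is named. Other list genes that are named, such as irak4, fall outside this rule. The values of 1 member are not reported here, though it is counted. The members and lists were chosen with earlier results of these data known.

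Deviations from the group means correlated at r = 0.497 between the 2 pools of number 3. For numbers 1 and 2 r was 0.15 and 0.239. For pools of unlike number it ran from -0.408 to 0.166, the highest being 5 Gy replicate 2 with control replicate 1. Number 1 therefore did not stand out from unlike pairs. Deviations within a group cancel out, so these r values depend on each other and cannot settle whether pools were paired by number. Replicates came from separate clutches. Whether an irradiated and a control pool of the same number shared a clutch is not stated. The fit blocked on replicate number is shown wherever a call differs in it. The fits were tested on simulated data in which the noise was independent between pools. Deviations shared between pools, as seen here, were not simulated. The alternatives tried were median centring, a second quantile normalization, a constant of 50 added before log2, the mean or median of probes, leaving out the dimmest 25% of targets (9289), array weights, eBayes with a trend, the methods' t-test unpaired or paired, and omission of each pool.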

Additional observations from a re-analysis of the deposited data

How the results depend on the processing

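The count of altered genes in the group, 1 of 43, stayed 1 with median centring, a second quantile normalization, the mean of probes, eBayes with a trend and the t-test of the methods, unpaired and paired (il19l in each), with the median of probes (casp6a) and in the fit blocked on replicate number, the replicate block (il12a). It was 0 with a constant of 50 added and without the dimmest 25% of targets, where il19l was not tested and 25 of the 43 genes were left. It was 10 with array weights (8 higher and 2 lower, without il19l), which is 23.3% against 29.4% of all targets. In that fit 1 of the 43 genes, rela, had an adjusted p under 0.05 (0.0431, limma), against 2839 of all 37157 targets. Leaving out 1 pool gave 0 to 6, the 6 without control replicate 3. Over all targets the count of 1500 was 3272 with the block, 10913 with array weights, 569 by the unpaired and 341 by the paired t-test of the methods, and 308 to 7126 when 1 pool was left out. The median ratio of the group lay between 0.04 and 0.15 in every setting in which it was computed, and no call changed direction. The adjusted p of il19l lay between 0.197 and 1.0 in the settings in which it was tested.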
